A study of Mus musculus with 35 samples.

Results

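The 6 RNA libraries of sorted mouse cranial neural crest fell into 2 sets of 3 that cut across genotype. Set A held wt1, mko2 and fko1, and set B held wt2, mko1 and fko2, so that each set had 1 library of every genotype. The sets were defined by the share of all counted reads that HTSeq placed in its class "no feature", with the dividing value at 19%. These 6 libraries are 6 of the 35 samples of the series, and the remaining samples are chromatin libraries or merged samples that were not used. Every embryo carried Wnt1-Cre and the Rosa-Tomato reporter and was collected at E12.5 (embryonic day). Wild-type males (wt, genotype WT Wnt1-Cre:wt), male knockouts (mko, Utx fl/y) and female knockouts (fko, Utx fl/fl) had 2 libraries each. Tomato-positive cells that excluded the dead-cell dye DAPI were sorted from the head in front of the otic vesicle, and libraries were made with a stranded kit that isolates mRNA. The labels used here give no strain, litter, preparation date or lane, and they do not say whether the 2 libraries of a genotype came from separate embryos. The p-values below therefore measure the spread between these libraries only, which may be technical.

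Cranial neural crest arises at the edge of the neural tube, migrates into the face and forms its cartilage, bone, connective tissue, pericytes, glia, pigment cells and part of the cranial nerve ganglia. Wnt1-Cre is active in the dorsal neural tube and in the crest that leaves it, so the floxed Utx (Kdm6a) alleles are deleted in that lineage. UTX, the product of Kdm6a, is a histone H3 lysine 27 demethylase. In counting with HTSeq, a read is given to a gene where it overlaps the annotated exons of that gene alone. A read in the class "no feature" overlapped no annotated exon, or none on the counted strand if counting was stranded. It can lie in an intron, between genes, in an unannotated transcript or, in stranded counting, opposite an exon.

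The share of reads with no feature was 16.8% in wt1, 16.6% in mko2 and 16.6% in fko1. It was 21.5% in wt2, 20.9% in mko1 and 21.1% in fko2, and the exact 95% binomial interval of each share, which covers counting error only, reached at most 0.0158 percentage points to either side. These shares chose the sets and are given as a description. The library just below the dividing value was wt1 and the one just above it was mko1. The class shares sum to the whole, so a higher share with no feature largely fixes a lower share on genes, and the shares of the other classes are given as a description too. Reads assigned to a gene made up 58.4% to 61.4% of all reads in set A and 54.4% to 55.6% in set B. Ambiguous reads, which overlap more than 1 gene, made up 0.578% to 0.59% in set A and 0.462% to 0.503% in set B. Reads with more than 1 alignment overlapped between the sets, at 21.3% to 24.4% in set A and 22.5% to 24.3% in set B. Gene reads numbered 15211999, 16350892 and 16301420 in wt1, mko2 and fko1, and 14513993, 15002409 and 15409454 in wt2, mko1 and fko2. At this lower depth set B nevertheless had reads on 17852 to 18129 genes, against 17609 to 17820 in set A.

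**Figure D1:**
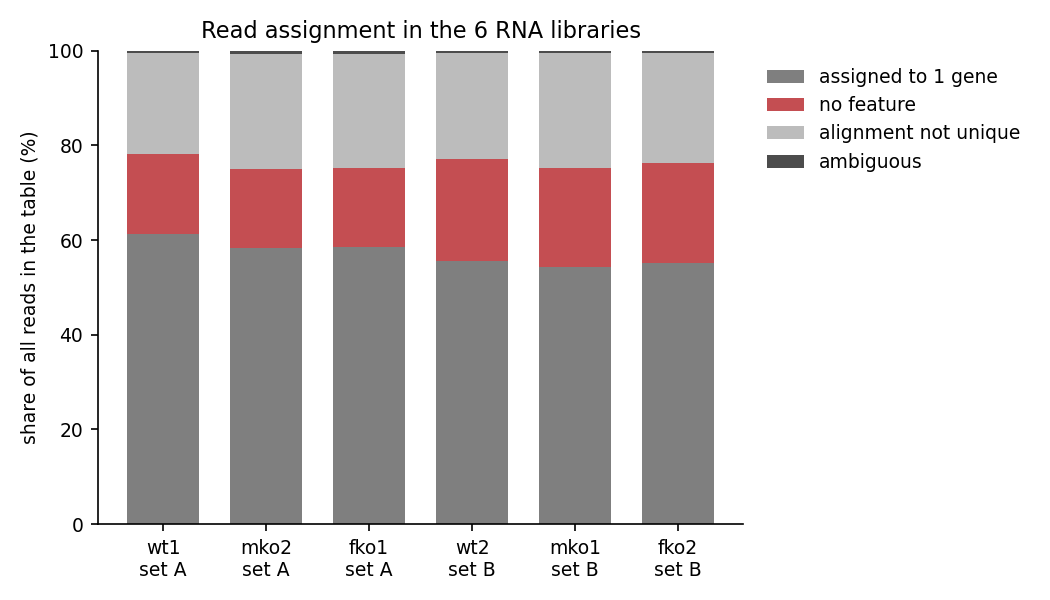
Share of all reads in the count table (%) by class for the 6 RNA libraries, set A left and set B right. The red "no feature" segment lies between 16.6% and 16.8% in set A and between 20.9% and 21.5% in set B.

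The targeted gene Kdm6a was at 45.6, 31.9 and 52.9 CPM (read counts scaled to a common library size) in wt1, mko2 and fko1 and at 51.5, 40.5 and 62.4 CPM in wt2, mko1 and fko2. Within each genotype the set B library was the higher one, and the set difference of Kdm6a was 0.25 on the log2 scale (SE 0.074, adjusted p = 0.053, edgeR quasi-likelihood test). The count covers the whole gene and does not separate the floxed exons from the rest, so it checks the genotype labels only in part. The Y-linked gene Uty had 526 and 545 reads in wt1 and mko2, 0 in fko1 and 10 in fko2. Kdm5d and Eif2s3y, also on the Y chromosome, had 0 and 1 reads in fko1 and 19 reads each in fko2. Xist, the noncoding RNA that silences 1 X chromosome in females, had 16 and 11 reads in the male libraries wt1 and mko2, and 26 and 21 in the male libraries wt2 and mko1. The Y-linked reads of the female libraries and the Xist reads of the male libraries were thus more numerous in the set B library of each genotype. Whether they came from cells of the other sex was not tested, nor was their part in the results below.

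Set B was compared with set A with genotype as a block, in an edgeR quasi-likelihood fit over 14521 genes that passed a filter on low counts. At an adjusted p under 0.05, 2088 genes differed (14.4% of those tested): 912 were higher in set B (6.28%) and 1176 lower (8.1%). Most differences were small. The median log2 fold change was 0.35 among the higher and −0.35 among the lower genes, and 39 genes reached 2-fold, 24 of them higher and 15 lower. The median over all genes tested was 0.0076. Called or not, 1376 genes (9.48%) had all 3 set B libraries above all 3 set A libraries and 1125 (7.75%) had them below, and these sets of libraries are called apart in what follows. With library totals in place of TMM factors the split of the calls was 1197 higher and 673 lower, so that 64.0% of them were higher in set B, against 43.7% in the fit reported here.

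The set accounted for less of the variance than genotype but for more than what remained. In a sum of squares over all tested genes on log2 CPM, genotype held 61.8%, the set 20.4% and the remainder 17.8%. The set thus held 53.4% of the variance between libraries of 1 genotype, with 1 of the 3 degrees of freedom there, for which an even share would be 33.3%. Adding the set to a model of genotype lowered the biological coefficient of variation from 0.131 to 0.0832. The number of genes called between genotypes moved with it, a comparison added after the data were seen. Without the set as a term, 340 genes (2.34%) differed between mko and wt and 163 (1.12%) between fko and wt. With the set as a term, 3589 (24.7%) and 3384 (23.3%) differed, and all 340 and all 163 of the former were among them. The 2 wild-type libraries are shared by these comparisons.

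The calls between the sets depended on which pairs of libraries were in the fit. Leaving out a library leaves its genotype with 1 library, so the set difference then rests on 2 genotype pairs. Without wt1 or wt2, 329 and 314 genes were called, without mko1 or mko2, 4950 and 5111, and without fko1 or fko2, 10 and 30. Of 121 genes followed through the alternatives, 109 passed the test. Of these 46 still passed without wt1, 46 without wt2, 108 without mko1, 108 without mko2, 4 without fko1 and 9 without fko2. With library totals 94 of the 109 kept the call, and with DESeq2 61 of the 67 that had an adjusted p there. Without a block for genotype no gene was called by edgeR, with 1453 genes at an unadjusted p under 0.05.

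Genes for ribosomal proteins were lower in set B almost throughout. Of 77 tested genes for cytosolic ribosomal proteins, which build the translating ribosome, 73 fell in set B and none rose. That is 94.8% of the list, against 8.1% called lower over all genes tested. The median of the list was −0.40 on the log2 scale. In the wt pair the median difference was −0.50, in the mko pair −0.28 and in the fko pair −0.45. The summed level of the list was 72605 CPM in wt1, 91720 in mko2 and 104110 in fko1, against 51625 in wt2, 76100 in mko1 and 75910 in fko2. Within each genotype the set B library was the lower one, but the sets overlapped because the wild-type libraries lay below the knockouts in both. Rpl39 had 642, 820 and 1057 CPM in set A (wt1, mko2, fko1) and 436, 598 and 659 CPM in set B (wt2, mko1, fko2). Its log2 fold change was −0.57 (SE 0.071, adjusted p = 0.016 by edgeR), although the lowest set A library lay below the highest of set B. Rpl38, whose loss in mice alters the patterning of the axial skeleton, did not overlap, at 384, 455 and 542 CPM in set A and 259, 337 and 377 CPM in set B (log2 fold change −0.51). Rpl31 was at 620 to 867 CPM in set A and 435 to 641 CPM in set B. The 4 members that did not pass were Rpl30, Rpl34, Rps27 and Rpl39l, all under 11 CPM in every library. Ribosomal protein genes have many near-identical processed pseudogenes, so reads of single members are uncertain. No member of the list was called without fko1 or without fko2, 13 were called without wt1 and 9 without wt2, with list medians of −0.34 to −0.46 over the 6 fits that leave out a library.

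Genes for the mitochondrial respiratory chain and ATP synthase that lie in the nucleus were lower in set B to a like extent. Of 72 tested, 68 were called lower in set B (94.4%, against 8.1% over all genes tested) and none was called higher. The list median was −0.38, with pair medians of −0.43 in wt, −0.29 in mko and −0.44 in fko. Cox7a2, a small subunit of cytochrome c oxidase, had 146, 188 and 216 CPM in wt1, mko2 and fko1 and 106, 137 and 142 CPM in wt2, mko1 and fko2, so the sets did not overlap (log2 fold change −0.51). Atp5j2, a subunit of the membrane part of ATP synthase, had 143 to 212 CPM in set A and 99.4 to 140 CPM in set B, also apart. The 4 members that were not called were Cox6b2, Cox7a1, Ndufs1 and Sdha. Ndufs1, a core subunit of complex I, had 108, 107 and 106 CPM in set A and 101, 98.2 and 99.8 CPM in set B. Sdha, the flavoprotein of complex II, had 198, 223 and 225 CPM in set A and 172, 209 and 203 CPM in set B. Without fko1 or fko2 no member was called, and without wt1 or wt2, 26 and 21 were. Mitochondrially encoded genes were not analysed here.

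A further 4 groups of genes for large protein complexes were assembled after the values had been seen and are given as descriptions. Over all genes tested 8.1% were called lower. Mitochondrial ribosomal proteins were lower in set B in 45 of 76 genes and higher in none (median −0.33). Proteasome subunits, which form the particle that degrades ubiquitin-tagged proteins, were lower in 31 of 37 (median −0.30). Sm and LSm proteins, which ring the small RNAs of the spliceosome and of mRNA decay, were lower in 13 of 20 (median −0.30), with Lsm3 at 85.1, 108 and 126 CPM in set A and 61.0, 79.3 and 81.6 CPM in set B. Subunits of RNA polymerase II were lower in 10 of 13 (median −0.36). Polr2k had the largest fall of these, at 55.0, 72.8 and 87.5 CPM in set A and 40.0, 48.8 and 53.3 CPM in set B. Without fko1 none of the 4 groups had a called member, and without fko2 they had 1, a gene for an Sm or LSm protein.

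**Figure D2:**
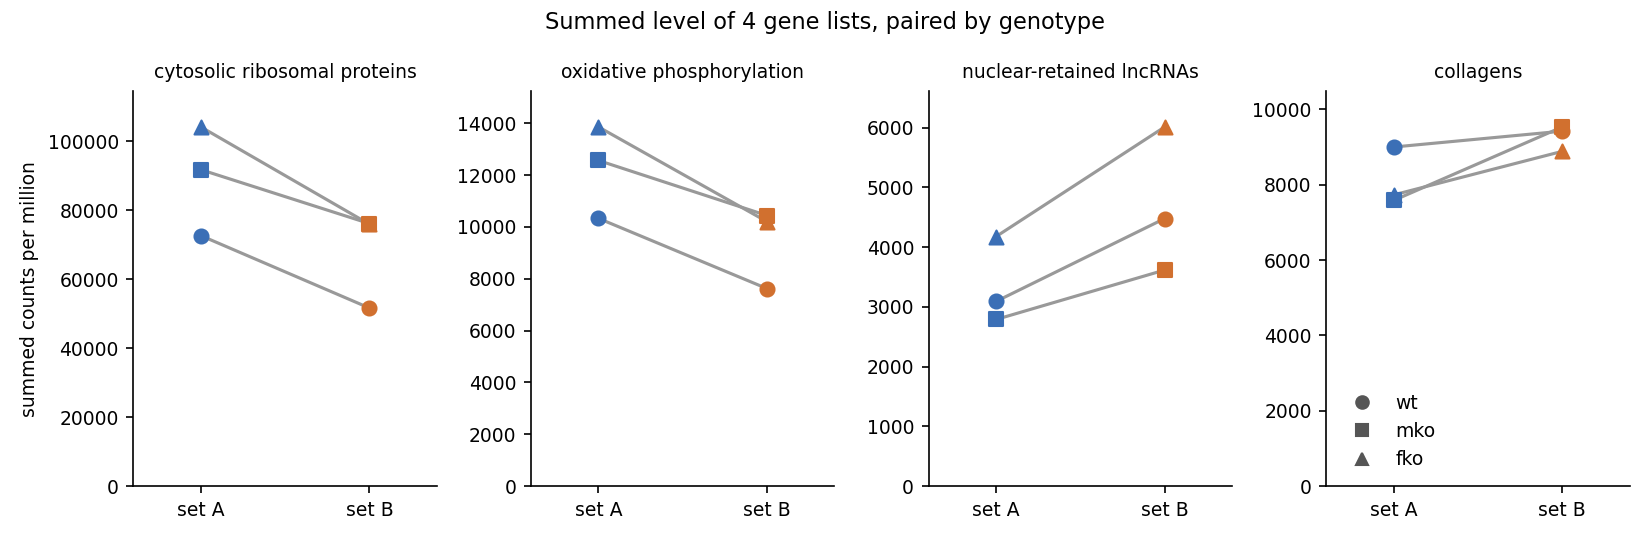
Summed CPM of 4 gene lists in set A (blue) and set B (orange); lines join the 2 libraries of a genotype (circles wt, squares mko, triangles fko) and each panel starts at 0. The lists for ribosomal proteins and oxidative phosphorylation are lower, and those for nuclear-retained lncRNAs and collagens higher, in the set B library of all 3 genotypes.

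RNAs that stay in the nucleus moved the other way. Of 11 tested long noncoding RNAs (lncRNAs) known to be retained there, 5 rose in set B and none fell, with a median of 0.38 and pair medians of 0.50 in wt, 0.35 in mko and 0.51 in fko. Kcnq1ot1, the antisense transcript that silences an imprinted cluster, had 284, 307 and 284 CPM in wt1, mko2 and fko1 and 430, 438 and 404 CPM in wt2, mko1 and fko2. The sets were far apart compared with the spread inside each (log2 fold change 0.54, SE 0.062, adjusted p = 0.016 by edgeR). Malat1, which sits in nuclear speckles, had 925, 1359 and 1328 CPM in set A and 1308, 1948 and 1959 CPM in set B (log2 fold change 0.53). Meg3, the maternally expressed lncRNA of the Dlk1 locus, had 720, 391 and 356 CPM in set A and 1032, 498 and 521 CPM in set B (0.47). In both, each genotype pair rose although the sets overlapped across genotypes. Xist passed as well, but its value rests on the female pair, with 1589 CPM in fko1 and 2273 CPM in fko2. Miat passed with 611, 227 and 191 CPM in set A and 1040, 226 and 327 CPM in set B, and its mko pair did not rise. Without fko1 or fko2 none of the 11 was called, and without wt1 or wt2, 3 and 4 were. Over all 520 tested lncRNA genes, 35 rose and 6 fell, where 6.28% of all genes tested were called higher and 8.1% lower. The share of lncRNAs called higher was thus near that of all genes. Their median was 0.12, against 0.0076 over all genes tested. They took 0.884% to 0.999% of gene reads in set A and 1.02% to 1.28% in set B.

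Genes whose transcripts are known to keep introns in the nucleus showed a smaller shift upward. Of 28, 7 rose in set B and none fell, with a median of 0.18. They included Nktr, Ogt and Srrm2. Ogt, the enzyme that attaches O-GlcNAc to proteins and whose own retained intron is regulated, had 341, 285 and 277 CPM in set A and 452, 359 and 367 CPM in set B. Those libraries did not overlap (log2 fold change 0.38). Srrm2, a large scaffold protein of nuclear speckles, had 872, 587 and 648 CPM in set A and 1116, 779 and 851 CPM in set B (0.39). Without fko1 or fko2 none of the 28 was called, and 1 and 2 were without wt1 and wt2. In the annotation of GRCm38.p6, 44 tested genes lay inside the span of another gene on the same strand, and their median was 0.16 (3 higher, none lower). Another 211 nested genes, whose strand was not matched, had a median of 0.14 (10 higher, 3 lower). Over all genes tested 6.28% were called higher, and the shares called higher in both these groups were near it or below it. The 120 that lay inside a gene on the opposite strand had a median of −0.04 (3 higher, 4 lower), and the 14091 that lay inside none had 0.0056. The strand setting used for counting is not given in the sources used here.

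Large chromatin regulators were also higher in set B, in a group put together after the values had been seen. Of 44 remodellers and histone methyltransferases with their partners, 24 rose (54.5%, against 6.28% called higher over all genes tested) and none fell. Their median was 0.25. Mll2, a symbol used for an H3 lysine 4 methyltransferase of the family whose complexes contain UTX, had 235, 179 and 206 CPM in set A and 345, 257 and 277 CPM in set B (log2 fold change 0.50, sets apart). Mll3 of the same family had 133, 93.1 and 92.8 CPM in set A and 166, 126 and 135 CPM in set B (0.43). Chd7, the remodeller mutated in CHARGE syndrome, had 102, 70.8 and 64.0 CPM in set A and 141, 73.7 and 84.5 CPM in set B (0.31). Ep300, a histone acetyltransferase, rose by 0.43. Without fko1 or fko2 none of the 44 was called.

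**Figure D3:**
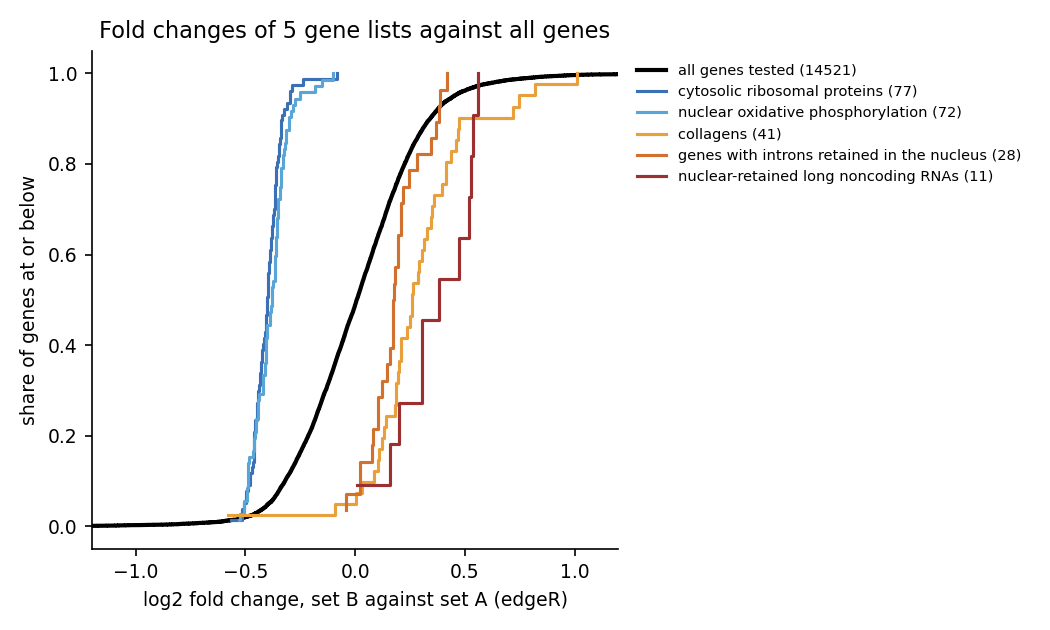
Cumulative share of genes by log2 fold change of set B against set A (edgeR), for all 14521 genes tested and for 5 gene lists. The curves for ribosomal proteins and oxidative phosphorylation lie left of the curve for all genes, and those for collagens, genes with retained introns and nuclear-retained lncRNAs lie right of it for most of their members.

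Extracellular matrix genes, which facial mesenchyme makes in large amounts, rose in part. Of 41 collagens, 10 rose (24.4%, against 6.28% called higher over all genes tested) and none fell. The log2 fold change was positive in 39 (95.1%, against 51.1% of all genes tested), and the median was 0.26. Col11a1, a fibrillar collagen of cartilage, had 194, 160 and 175 CPM in wt1, mko2 and fko1 and 213, 236 and 268 CPM in wt2, mko1 and fko2 (log2 fold change 0.44, sets apart). Col6a3 had 215, 153 and 126 CPM in set A and 235, 229 and 182 CPM in set B. Col1a1 and Col3a1, fibrillar collagens of bone and connective tissue, did not pass, at 0.26 (adjusted p = 0.057 by edgeR) and 0.21 (adjusted p = 0.092). Laminins, fibrillins and large cadherins, grouped after the values had been seen, held 8 rises (42.1%) and no fall in 19 genes, with a median of 0.31. Lama1, a laminin chain of early basement membranes, rose by 0.47 and Celsr2, a planar polarity cadherin, by 0.49. Of 52 clustered protocadherins, adhesion proteins of neurons, 46 had a positive value (88.5%, median 0.25) but 1, Pcdha11, was called. That share of 1.92% lay below the 14.4% called over all genes tested. Without fko1 or fko2 no collagen was called.

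Lists of crest genes and of crest derivatives held from 0 to 4 called genes each. The share called was 22.2% for jaw and arch genes and 16.7% for cartilage and for pigment cells. It was 0% to 8.33% in the other lists of this paragraph, against 14.4% over all genes tested. Of 17 crest and facial mesenchyme genes 1 rose, Tfap2b, a transcription factor of crest and facial ectoderm, at 90.6, 93.9 and 89.9 CPM in set A and 115, 123 and 134 CPM in set B (log2 fold change 0.44, adjusted p = 0.017 by edgeR). The sets were apart by more than their spread. Of 18 jaw and arch patterning genes, 3 rose, among them Pou3f3 and Nr2f2, and 1, Gsc, a homeobox gene of the lower jaw, fell from 12.2, 20.2 and 21.2 CPM to 9.54, 16.9 and 13.2 CPM. Among 18 cartilage genes Col11a1, Col11a2 and Fgfr3, a receptor that restrains growth of cartilage, rose (16.7% of the list), and the pair medians of the list were −0.41 in wt, 0.29 in mko and 0.50 in fko. Among 12 tested bone genes Ibsp, bone sialoprotein, rose from 6, 4 and 4 reads in wt1, mko2 and fko1 to 20, 9 and 58 in wt2, mko1 and fko2. No gene was called among 19 frontonasal and palate genes or 11 tendon genes. Foxd3 (Schwann cell precursors), Tyr (pigment) and Abcc9 (pericytes) were the single called members of their lists, each higher in set B. Without fko1 or fko2 none of the lists in this paragraph, that of Tfap2b included, had a called member. The same held for the jaw and arch genes and for the list of Abcc9 without wt1 or wt2, and the rise of Foxd3 was not called there either.

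Of signalling targets, those of BMP and the retinoic acid pathway held falls, and those of Hedgehog, Wnt and FGF 1 rise each; no difference between pathways was tested. Of 9 BMP targets Id1, Id3 and Bambi, which are induced by BMP signals, fell (33.3%, against 8.1% called lower over all genes) and none rose. Id3 had 160, 249 and 285 CPM in set A and 105, 222 and 200 CPM in set B (log2 fold change −0.43). Of 11 genes of the retinoic acid pathway 3 fell (27.3%), among them those for the binding proteins Crabp1 and Crabp2, with Crabp1 at 190, 259 and 276 CPM in set A and 145, 209 and 186 CPM in set B. Ptch1, the Hedgehog receptor and target, rose by 0.32, Znrf3, a feedback inhibitor of Wnt, by 0.39, and Spred1, a feedback inhibitor of FGF signals, by 0.30. Each was the single called gene of its list of 8, 10 and 9, where 6.28% of all genes were called higher, and the fko pair medians of the Hedgehog and FGF lists were −0.00028 and −0.084. Without fko1 or fko2 no gene of the BMP, retinoic acid, Hedgehog, Wnt or FGF list was called. Without wt1 or wt2 the same held for all of these lists but that of retinoic acid.

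Metabolism and the cell cycle held mostly small falls. Of 24 genes of hypoxia and glycolysis 8 fell, all of them glycolytic enzymes, while Vegfa, a secreted growth factor for vessels, rose by 0.37. Ldha, lactate dehydrogenase A, had 429, 601 and 676 CPM in set A and 286, 521 and 494 CPM in set B (log2 fold change −0.41). Of 17 DNA replication genes Mcm5, Mcm7, Tyms and Gins2 fell and all 17 had a negative value. Of 17 mitosis genes Cdk1, Ccnb2 and Cdc20 fell and Cenpf rose, and of 30 tested replication-dependent histone genes 1, Hist3h2ba, fell. Among 14 genes of cholesterol synthesis Fdps, Fdft1 and Mvk fell. Of 11 hosts of small nucleolar RNAs, Snhg1 and 1500012F01Rik fell and none rose. In the stress lists Hspa8 and Hspe1 fell among 12 heat shock genes (16.7% called), Asns among 13 genes of the unfolded protein response, of which 12 had a negative value, and Jund among 22 immediate early genes. Bax fell and Zmat3 rose among 13 p53 targets (15.4%), so that the shares for heat shock and p53 lay near the 14.4% of all genes. The share called was 37.5% for hypoxia and glycolysis, 23.5% for DNA replication and for mitosis, 21.4% for cholesterol synthesis and 18.2% for the snoRNA hosts. It lay below that of all genes for the histones (3.33%), the unfolded protein response (7.69%) and the immediate early genes (4.55%). Of 22 immediate early and dissociation genes none other than Jund was called. Without fko1 or fko2 no gene of the lists in this paragraph was called. Without wt1 or wt2 the same held but for cholesterol synthesis, the unfolded protein response and the immediate early genes.

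**Figure D4:**
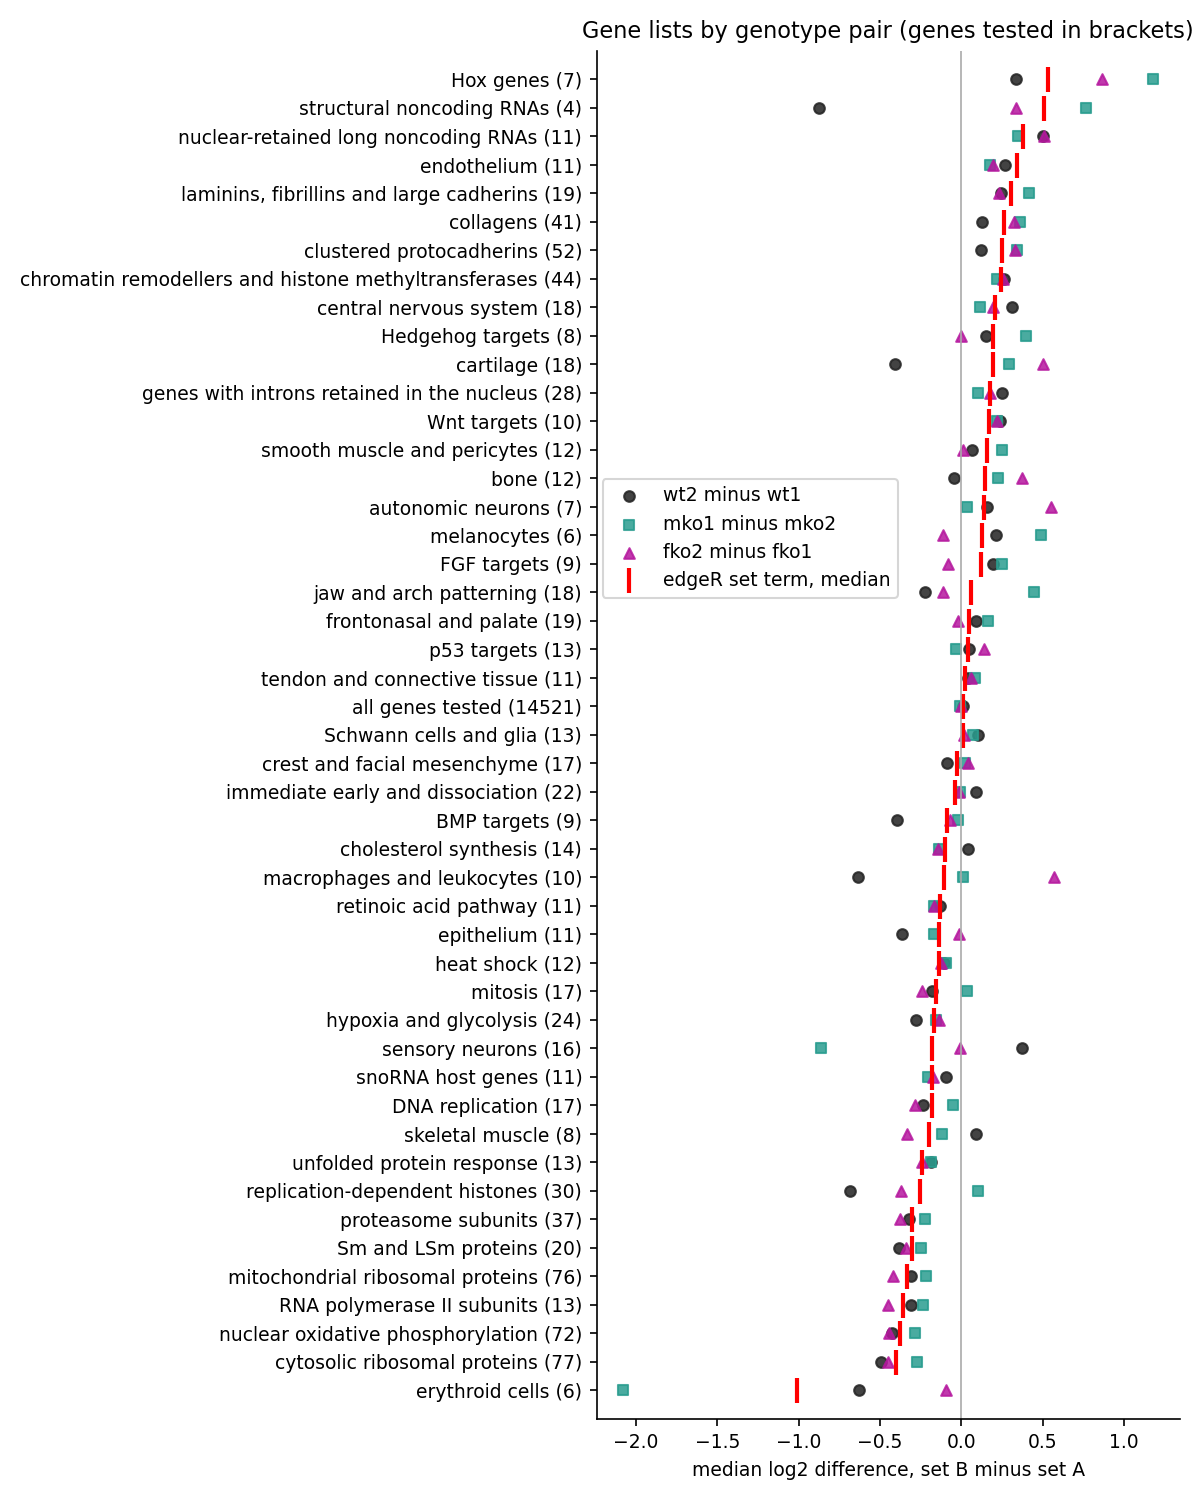
Median log2 difference of set B minus set A in the wt (circles), mko (squares) and fko (triangles) pair for gene lists with at least 4 tested genes. The sex markers are left out, and red bars give the median of the edgeR set term. The lists for ribosomal proteins, oxidative phosphorylation and proteasome lie below 0 in all 3 pairs, while cartilage, sensory neurons and macrophages have pairs on both sides of 0.

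Markers of neurons, and of other cells that the sort could hold, were counted as well. Of 6 tested erythroid genes, which sorted crest should lack, Hba-x and Hbb-bh1 fell and the list median was −1.01. The pair medians were −0.63 in wt, −2.08 in mko and −0.095 in fko, and the list median was −0.43 without mko1 or mko2. DESeq2 called none of the 6, with an adjusted p of 0.061 for Hba-x and 0.16 for Hbb-bh1. The summed level of the erythroid genes was 515, 1364 and 443 CPM in wt1, mko2 and fko1 and 311, 323 and 404 CPM in wt2, mko1 and fko2. The list lay at 443 CPM or above in set A and at 404 CPM or below in set B, with mko2 far above the rest. No gene was called among 11 endothelial, 10 macrophage, 11 epithelial, 8 skeletal muscle or 16 sensory neuron markers. Among 7 tested markers of autonomic neurons 1 rose (14.3%, near the 14.4% called over all genes tested), and DESeq2 called none. Summed macrophage markers were at 8.23 to 17.5 CPM in set A and 10.0 to 14.3 CPM in set B. Of 18 markers of the central nervous system Foxa1 and Foxa2, forkhead factors of the floor plate, rose (11.1%, against 14.4% called over all genes tested). DESeq2 called no gene of that list, and edgeR called none without wt1, wt2, fko1 or fko2. Its summed levels overlapped, at 161 to 354 CPM in set A and 170 to 437 CPM in set B. In the mko pair the sum was lower in set B, at 179 CPM in mko2 and 170 CPM in mko1. The part of these cells in the other results was not tested, and in bulk RNA fewer cells of a type cannot be told apart from less RNA per cell. Rn45s, the ribosomal precursor, took 0.937% of gene reads in wt1, 3.13% in mko2, 3.32% in fko1, 0.383% in wt2, 4.97% in mko1 and 2.99% in fko2, without a common direction. The called erythroid genes passed without fko2, and Hba-x also without fko1.

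The largest rises were taken among called genes with a mean of at least 5 CPM whose libraries did not overlap between the sets. They were Fam129c, Fendrr, Mir3064, Cmah, A330076H08Rik, E330033B04Rik, Col11a2, Corin, Rmst and Itga10, at 0.96 to 0.67 on the log2 scale. Fendrr, a lncRNA needed for heart and body wall development, had 8.36, 7.03 and 7.05 CPM in wt1, mko2 and fko1 and 20.2, 10.9 and 12.4 CPM in wt2, mko1 and fko2 (log2 fold change 0.92, SE 0.15, adjusted p = 0.017 by edgeR). Rmst, a lncRNA that acts with Sox2 in neural differentiation, had 9.76, 7.79 and 9.53 CPM in set A and 17.8, 12.2 and 13.4 CPM in set B (0.67). Col11a2 had 25.1, 12.9 and 15.5 CPM in set A and 27.7, 27.1 and 32.7 CPM in set B (0.75), so that its wt pair differed least. Itga10, the integrin chain by which chondrocytes bind collagen, had 3.53 to 5.95 CPM in set A and 6.20 to 9.16 CPM in set B. Of the 10, 8 had their highest level in wt2 and 2, Col11a2 and A330076H08Rik, in fko2. Without fko1 and without fko2 none of the 10 was called.

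Mir3064 is shown with its sequence because it is a microRNA hairpin counted in an mRNA library. Its annotated hairpin lies inside the gene Ddx5, an RNA helicase, at chr11:106782693-106782759 on the minus strand of GRCm38.p6 (RefSeq). The mature arms are given 5′ to 3′ with the seed, bases 2 to 8, in capitals, followed by the hairpin that holds them.
mmu-miR-3064-5p: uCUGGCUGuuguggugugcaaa
mmu-miR-3064-3p: uGCCACACugcaacaccuuaca
Mir3064 hairpin: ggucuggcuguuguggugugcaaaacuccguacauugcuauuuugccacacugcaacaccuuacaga
Reads at Mir3064 numbered 68, 78 and 50 in wt1, mko2 and fko1 and 178, 84 and 97 in wt2, mko1 and fko2. The log2 fold change was 0.87 (SE 0.22, adjusted p = 0.034 by edgeR), with wt2 far above the other libraries. Ddx5 itself had 1222, 1141 and 1015 CPM in set A and 1387, 1114 and 1140 CPM in set B and did not pass (0.11, adjusted p = 0.36). Whether the reads counted for Mir3064 came from the microRNA or from the Ddx5 transcript around it cannot be told apart in a table of counts per gene. Of 12 tested microRNA genes, it was the 1 that was called, and the median of the 12 was −0.084. The call was lost without fko1 or fko2.

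**Figure D5:**
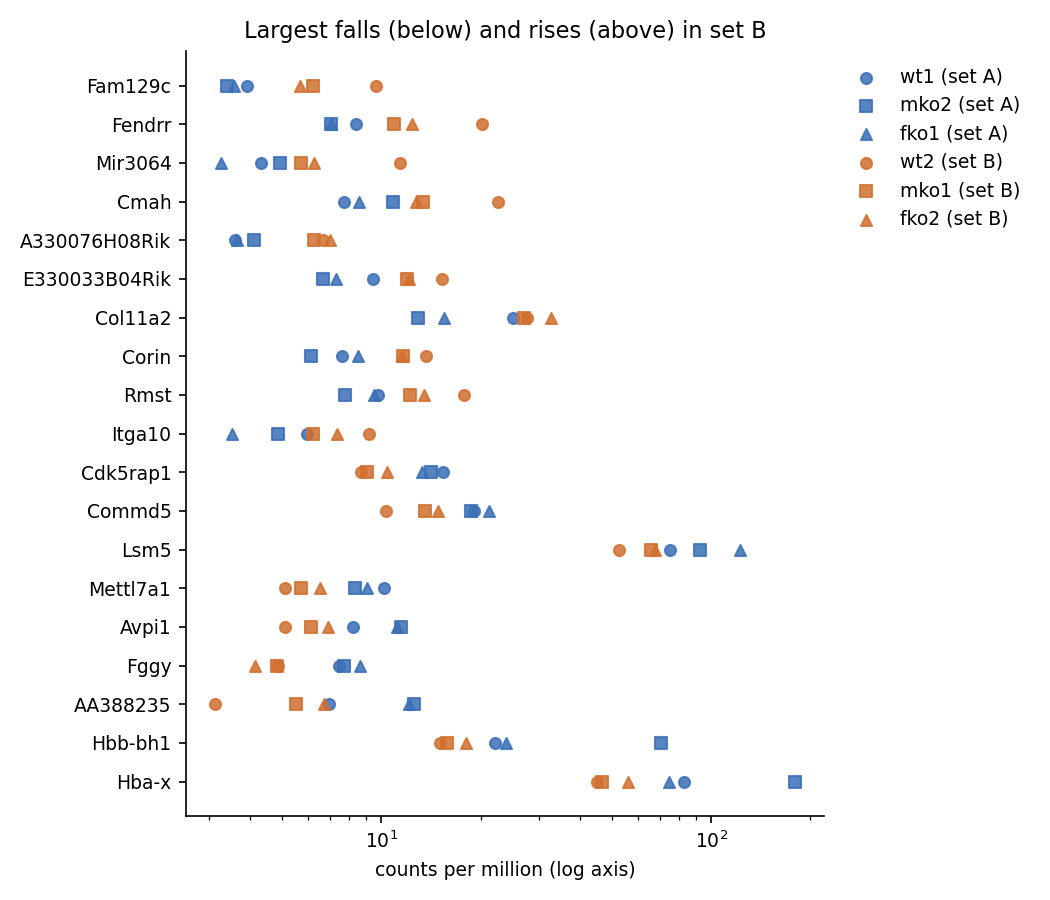
CPM (log axis) in each library for 9 of the 10 largest falls (lower rows) and the 10 largest rises (upper rows) in set B, blue for set A and orange for set B. By the rule that chose them, the 3 set B libraries lie on one side of the 3 set A libraries in each row.

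The 10 largest falls by the same rule included Hba-x, Hbb-bh1, AA388235, Fggy, Avpi1, Mettl7a1, Lsm5, Commd5 and Cdk5rap1, at −1.09 to −0.61. Hba-x and Hbb-bh1, globins of primitive red cells, led it, with Hba-x at 82.5, 180.0 and 74.7 CPM in wt1, mko2 and fko1 and 44.95, 46.6 and 55.9 CPM in wt2, mko1 and fko2. Here mko2 stood above the other libraries of set A. Commd5 was apart, with 19.1, 18.7 and 21.2 CPM in set A and 10.3, 13.6 and 14.9 CPM in set B (log2 fold change −0.62, SE 0.12, adjusted p = 0.020 by edgeR). Lsm5, of the ring that binds U6 RNA, had 75.1, 92.2 and 122 CPM in set A and 52.4, 65.9 and 67.4 CPM in set B. Cdk5rap1, an enzyme that modifies mitochondrial tRNA, had 13.3 to 15.4 CPM in set A and 8.71 to 10.4 CPM in set B. Of the genes named here, the test called Hba-x without fko1, and Hba-x, Hbb-bh1 and AA388235 without fko2.

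Of the 24 called genes at least 2-fold higher in set B, 7 regulators and receptors were chosen after their values were seen and are given singly, with no count of a wider group behind them. Hoxb2, a regulator of hindbrain segments, had 8, 5 and 13 reads in wt1, mko2 and fko1 and 37, 28 and 39 in wt2, mko1 and fko2. Hoxb3 had 1, 4 and 6 reads in set A and 13, 11 and 32 in set B. They were the 2 called among 7 tested of 28 Hox genes, the other 21 being under the filter. Pax2 and Pax8, paired-box factors of the midbrain-hindbrain boundary, the ear and hindbrain neurons, had 8, 7 and 13 and 2, 3 and 4 reads in set A, and 41, 27 and 68 and 13, 13 and 18 in set B. In all 4 genes every set B library was above every set A library. Evx1, a factor of spinal and hindbrain interneurons, had 5, 2 and 15 reads in set A and 39, 26 and 47 in set B. Atoh1, which specifies neurons of the rhombic lip, had 0, 2 and 1 reads in set A and 19, 12 and 5 in set B. Robo3, a receptor that lets hindbrain and spinal axons cross the midline, had 396, 143 and 298 reads in set A and 1030, 273 and 778 in set B. Its log2 fold change was 1.29 (SE 0.098, adjusted p = 0.0023 by edgeR), and it rose in each pair although the sets overlapped. Robo3 and Evx1 passed without fko1 and without fko2, while Hoxb3, Pax8 and Atoh1 were lost in both fits, and Pax8 and Atoh1 were also lost without wt1 or wt2. Hoxb2 passed without fko2 but not without fko1, and Pax2 had an adjusted p of 0.088 without fko1 and 0.051 without fko2.

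Of the 15 called genes at least 2-fold lower, 4 were likewise chosen after their values were seen. Cryaa and Cryba1, crystallins of the lens, had 27, 16 and 11 and 42, 78 and 33 reads in wt1, mko2 and fko1, and 7, 7 and 2 and 19, 20 and 22 in wt2, mko1 and fko2. Trh, thyrotropin-releasing hormone, had 16, 18 and 41 reads in set A and 8, 7 and 6 in set B. Pomc, the precursor of several hypothalamic and pituitary peptides, had 58, 63 and 60 reads in set A and 28, 29 and 29 in set B. In all 4 genes the sets did not overlap. At reads this few, all these genes were under 5 CPM. All 4 calls were lost without fko1 and without fko2, and those of Cryaa and Pomc also without wt1 and without wt2.

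The gene with the smallest adjusted p, Gm5779, behaved unlike the rest. It had 0, 12 and 1 reads in wt1, mko2 and fko1 and 1, 396 and 447 in wt2, mko1 and fko2 (adjusted p = 0.00096 by edgeR). The mko and fko pairs rose and the wt libraries were both at or near 0, so the set term describes the knockout pairs only. Arg1, which encodes arginase, was called lower with 14, 160 and 219 reads in set A and 24, 55 and 86 in set B, and its wt pair went the other way. Gm5779 passed in each of the 6 fits that leave out a library, and Arg1 did not pass without fko1 or fko2. Of the 2088 called genes, 2083 had the same sign in all 3 pairs, against 52.7% of all genes tested, a count that the test itself largely fixes.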

How the data were processed

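RNA-seq of 6 libraries was analysed. The submitters' processing notes list HTSeq, TopHat2, Bowtie2, SAMtools and Trimmomatic and the build mm9; versions and strand setting are not given in the sources used here. The authors deposited unnormalised read counts per gene, with HTSeq's summary lines, which were used only for the read classes. Chromatin files were not used. Gene reads per library numbered 14513993 to 16350892. Genes were filtered with filterByExpr and tested with edgeR 4.0.16 (TMM factors, quasi-likelihood F test, terms for genotype and set, 2 residual degrees of freedom) in R 4.3.3, with Benjamini-Hochberg adjustment over all genes and a threshold of 0.05. Levels are CPM of TMM-scaled library sizes, and fold changes are set B over set A. Log2 CPM for pair differences and variance used a prior count of 2. DESeq2 1.42.0 and limma-voom (limma 3.58.1) were alternatives, besides other scaling, no filter, other blocks and leaving out each library. Intervals used scipy (exact, Clopper-Pearson) and cover counting error only.

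The sets, the 41 gene lists and the naming rule were chosen with earlier results of these data known, and 6 lists were added after the values were seen. The rule named Kdm6a, the 10 largest rises and 10 largest falls among called genes whose mean reached 5 CPM and whose sets did not overlap, and in every list at most 3 members, those of smallest p. Not all are described, some are not reported here, and other genes named in the text were chosen after their values were seen. Of 23366 genes, 23210 were matched to the RefSeq gene table of GRCm38.p6, used for names, biotype and nesting. Gene lengths were not used, so levels are not compared between genes.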

Additional observations from a re-analysis of the deposited data

Results flagged for a closer look

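In 3 gene lists the genotype pairs moved in opposite directions between the sets. The median log2 difference of the 18 cartilage genes, set B minus set A, was −0.411 in the wt pair and 0.5 in the fko pair. That of the 16 sensory neuron markers was −0.864 in the mko pair and 0.375 in the wt pair. That of the 10 macrophage markers was −0.637 in the wt pair and 0.568 in the fko pair. Each genotype has 1 library in each set, so these differences between pairs were not tested.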

How the results depend on the processing

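The 2088 genes called between the sets became 2075 with RLE factors, 1870 with library totals, 1522 with DESeq2 (6757 genes had no adjusted p there), 2202 with limma-voom and 2255 without the filter. Calls higher in set B fell from 912 to 576 with DESeq2, and calls lower in set B from 1176 to 673 with library totals. Without a genotype block the calls were 0 in all, 0 higher and 0 lower. Leaving out 1 library gave 10 to 5111 genes in all, 8 to 2445 higher and 2 to 2666 lower, the fewest without fko1 and the most without mko2. Over the same fits Cox7a1 (−0.34 to 0.065 on the log2 scale) and Rps27 (−0.17 to 0.014), which were not called, changed sign, both without mko1 and without mko2. The cause of these differences was not tested.

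The replicate numbers of the labels follow the sets in wt and fko, where number 1 is in set A, and run the other way in mko. With a replicate block beside genotype, which leaves 1 residual degree of freedom, 4203 genes were called, 1949 higher and 2254 lower. Deviations from the genotype mean correlated at −0.24 between same-numbered wt and mko libraries, 0.43 between wt and fko and −0.23 between mko and fko. With 2 libraries per genotype the deviations mirror each other, so these correlations cannot show whether the numbers pair the libraries. Adding the set to the comparison of genotypes, an alternative added later, raised the calls from 340 to 3589 for mko and from 163 to 3384 for fko. With 2 residual degrees of freedom, 1 when a library is left out or a replicate block is added, and 3 libraries a side, low-count genes are the least certain.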
